A study of Mus musculus with 4 samples.

Results

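The mitochondrial ribosomal proteins are the genes whose symbol begins with Mrpl (large subunit) or Mrps (small subunit) followed by a number. They were taken by name, not by their values, from the gene symbols matched to the probes of the arrays. This gave 78 genes of 23462 with a value, 49 of the large and 29 of the small subunit. In RefSeq 84 mouse symbols fit the pattern. Of these, 78 code for proteins and each had a probe, and the other 6 are pseudogenes without one.

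RNA was measured on 4 single-colour arrays, 1 for each condition, in bone marrow-derived dendritic cells (BMDCs). BMDCs are grown from marrow progenitors with the growth factor GM-CSF, and they serve as a model of the cells that take up antigen and start T cell responses. All 4 conditions used wild-type cells from femurs of male C57BL/6J mice, kept in MEM to which 10% FBS and GM-CSF at 10 ng/ml had been added, and collected on day 6; the age and number of mice and any pooling are not given in the sources used here. The conditions were medium without stimulation, LPS at 100 ng/ml, LA (L-(+)-LA, lactic acid) at 20 mM, and LPS with LA at the same doses. LPS, a bacterial wall component, activates these cells through Toll-like receptor signalling. Treatment lasted 4 h. The labels state neither how long the medium cells were kept nor the pH of the LA cultures. The series title asks about lactate and inflammation in dendritic cells, and the design allows each agent to be set against medium and the combination against each agent alone.

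Mitochondria keep a small genome that codes for a few core subunits of the respiratory chain. These are made inside the organelle by a ribosome of its own, whose rRNAs come from the mitochondrial genome while its proteins come from nuclear genes, are made in the cytosol and are imported. Some of these proteins descend from bacterial ribosomal proteins, and others were added during the evolution of mitochondria. By these classes, assigned from textbook knowledge, 46 of the 78 genes have a bacterial counterpart, 31 are specific to mitochondria and 1 is neither. That gene, Mrps36, carries a ribosomal name but its product is a component of the 2-oxoglutarate dehydrogenase complex. Mrps18a and Mrps18b were counted as specific to mitochondria, although their paralogue Mrps18c was counted as having a bacterial counterpart. The 78 genes lie on 17 chromosomes.

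The promoters of these genes are shown first, because shared motifs are the feature that the choice by name did not use. RefSeq (GRCm38.p6) gave a window from 250 bases before to 50 after the start for 69 of the 78 genes. The genes below were chosen as those the later results name or as examples of each motif. Each run goes from 120 bases before to 50 after the start, 5′ to 3′ on the strand of the gene. Capitals mark CCGGAAG (the letters bound by ETS factors such as GABP), GCATGCGC (the core of the NRF1 motif), AAGATGGCG (the YY1 motif) and CACGTG (the E-box), on either strand.
Mrpl34 (chr8:71464806-71464975, plus strand): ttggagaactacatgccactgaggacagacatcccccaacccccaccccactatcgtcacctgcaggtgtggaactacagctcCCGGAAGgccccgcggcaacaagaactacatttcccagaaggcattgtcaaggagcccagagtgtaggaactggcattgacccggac
Mrpl57 (chr14:57826119-57826288, plus strand): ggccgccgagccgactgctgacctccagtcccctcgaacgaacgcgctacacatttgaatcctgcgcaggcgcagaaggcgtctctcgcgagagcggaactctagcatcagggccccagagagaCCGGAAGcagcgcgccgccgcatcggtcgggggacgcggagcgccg
Mrps12 (chr7:28741772-28741941, minus strand): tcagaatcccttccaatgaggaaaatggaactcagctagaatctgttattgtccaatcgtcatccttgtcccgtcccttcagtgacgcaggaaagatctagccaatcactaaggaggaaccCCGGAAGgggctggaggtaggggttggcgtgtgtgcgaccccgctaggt
Mrps26 (chr2:130563637-130563806, plus strand): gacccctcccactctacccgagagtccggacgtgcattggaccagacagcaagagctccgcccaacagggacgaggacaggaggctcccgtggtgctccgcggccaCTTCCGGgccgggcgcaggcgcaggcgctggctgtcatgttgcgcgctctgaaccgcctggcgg
Mrps11 (chr7:78783011-78783180, plus strand): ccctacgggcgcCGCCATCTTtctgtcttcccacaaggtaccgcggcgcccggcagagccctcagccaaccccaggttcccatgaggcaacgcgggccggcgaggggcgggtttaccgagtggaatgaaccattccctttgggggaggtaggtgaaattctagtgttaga
Mrpl36 (chr13:73330889-73331058, plus strand): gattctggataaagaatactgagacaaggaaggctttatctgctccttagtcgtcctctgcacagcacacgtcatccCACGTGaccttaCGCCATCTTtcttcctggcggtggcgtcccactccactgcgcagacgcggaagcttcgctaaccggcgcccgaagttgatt
Mrpl33 (chr5:31613831-31614000, plus strand): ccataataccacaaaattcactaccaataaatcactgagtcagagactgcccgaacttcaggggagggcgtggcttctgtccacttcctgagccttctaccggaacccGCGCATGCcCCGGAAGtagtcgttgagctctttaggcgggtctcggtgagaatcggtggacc
Mrps18a (chr17:46110884-46111053, plus strand): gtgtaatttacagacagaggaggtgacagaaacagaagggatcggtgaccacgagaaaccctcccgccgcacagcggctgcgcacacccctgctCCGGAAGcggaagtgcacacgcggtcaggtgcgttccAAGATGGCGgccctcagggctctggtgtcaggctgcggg
Mrps18b (chr17:35916391-35916560, minus strand): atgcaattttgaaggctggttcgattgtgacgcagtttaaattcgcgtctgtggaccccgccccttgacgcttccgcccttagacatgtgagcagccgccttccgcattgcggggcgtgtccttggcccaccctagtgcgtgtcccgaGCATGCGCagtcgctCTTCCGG
Mrps22 (chr9:98601630-98601799, minus strand): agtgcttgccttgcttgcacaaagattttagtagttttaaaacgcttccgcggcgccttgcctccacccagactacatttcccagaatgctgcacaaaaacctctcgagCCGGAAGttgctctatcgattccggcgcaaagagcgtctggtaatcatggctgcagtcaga

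Among the 69 windows, 26 held CCGGAAG on either strand, or 37.7%. The share was 9.93% of all 27025 genes of the RefSeq table and 17.7% of the 10624 genes with a window that were above background on all 4 arrays. GABP, NRF1 and YY1 are textbook regulators of nuclear genes for mitochondrial proteins. The NRF1 core was in 11.6% of the members' windows, against 5.04% of the genes above background. The YY1 letters were likewise in 11.6%, against 3.01%. At least 1 of these 3 motifs (copies may overlap) was in 36 of 69 windows (52.2%), against 23.6% of genes above background, 50.8% of cytosolic ribosomal protein genes and 42.4% of respiratory complex genes. The NRF1 core and the YY1 letters were in 15.3% and 11.9% of the windows of the respiratory complex genes. A match says only that the letters are present.

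Not every motif was more frequent in these windows. The E-box was in 7.25% of them and in 10.9% of the genes above background, TATAAA in 7.25% against 11%, and CCAAT in 39.1% against 42.5%. The CCGGAAG letters were not particular to mitochondria: 39.7% of 63 windows of cytosolic ribosomal protein genes held them, and 23.7% of 59 windows of respiratory complex genes. In the members' windows, 28 of 31 copies of CCGGAAG lay no farther than 100 bases before the start. Of 8 YY1 copies there, 6 began after the start, as in Mrps18a above. Positions were counted in the members only, so whether they differ from those in other genes was not tested. Median GC content was 58.3% in the members' windows and 59.3% among genes above background.

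**Figure D1:**
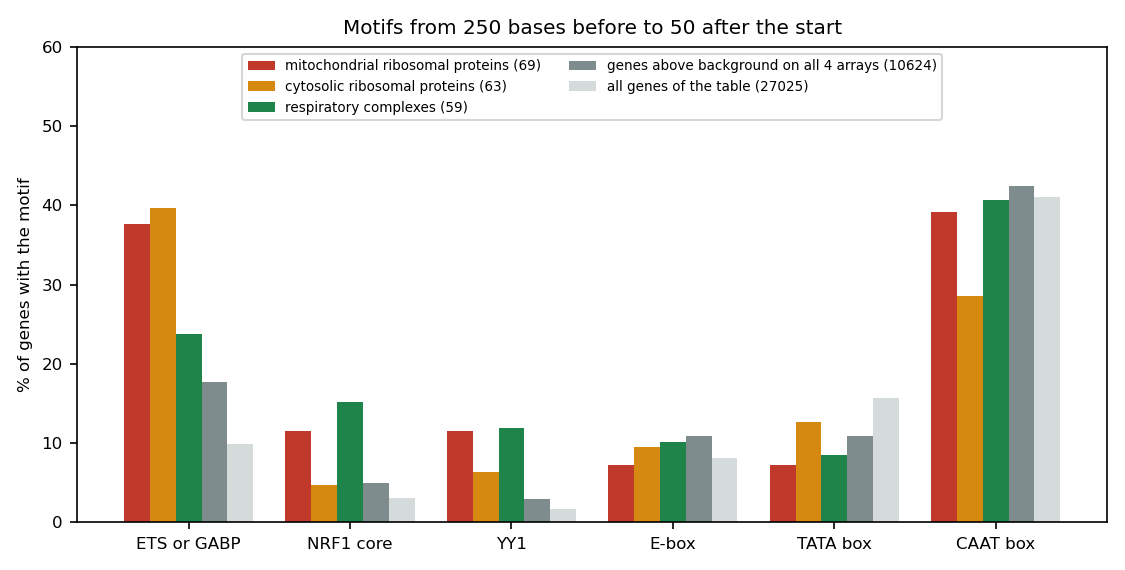
Bars give the percentage of genes whose window (250 bases before to 50 after the start) holds each motif on either strand, for 5 sets of genes whose numbers stand in the key. The ETS or GABP motif was in 37.7% of the mitochondrial ribosomal protein genes and 9.93% of all genes of the table, while the CAAT box was at 39.1% and 41.1%.

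Another shared feature was the position of the gene. For 27 of the 69 members (39.1%) a gene on the opposite strand started within 1000 bases of the member's start, against 15.8% of all genes and 20.6% of those above background. In 1 case both are members: Mrpl46 and Mrps11 start 42 bases apart and are read in opposite directions. Their values differed on the LPS array. Mrpl46 stood 0.05 above medium and Mrps11 0.84 below it on the log2 scale (log2 difference -0.84). Mrps12 starts 147 bases from Sars2, the mitochondrial seryl-tRNA synthetase. Sars2 differed by 0.19 with LPS, where Mrps12 differed by -1.09. Other pairs were lower together with LPS, such as Mrps5 and Zfp661 (-1.74 and -1.07) and Mrpl57 and Ska3 (-0.91 and -0.68). These pairs are examples, and whether neighbours moved together was not tested.

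All levels below are log2 values of the processed spot intensity, less the log2 value of the array's 75th percentile, so 0 is the brightness of the 75th percentile spot and a difference of 1 is 2-fold. A gene was read from its brightest probe, and levels of different genes are not comparable because probes differ in brightness. A gene counted as measured in a comparison where that probe was well above background on every array involved. Thresholds of 1.5-fold (0.585 on the log2 scale) and 2-fold were used for counts. With 1 array for each condition there is no replicate check, so no test was made, and every difference is one between 2 arrays and not shown to hold for the condition.

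Of the 78 genes, 75 were well above background on all 4 arrays. Mrpl35 and Mrpl49 were above it on none. Mrpl47 was not well above background on the LPS array, at -4.21, and was at -3.63 in medium, at -3.33 with LA and at -3.59 with both agents. No fold against LPS was given for it, since the values in medium and with both lay below -3.49, the lowest signal well above background on the LPS array. The LPS array had the smallest share of spots above background, 56.5%, against 61.5% to 64.1% on the others. All 4 arrays lay on 1 slide and were scanned on 1 day. All 12 dendritic cell markers checked, among them Itgax, Flt3 and Zbtb46, were above background on all 4 arrays, and so were all 10 neutrophil markers.

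With LPS, mitochondrial ribosomal protein genes were mostly lower than in medium, with a lower median in the small subunit than in the large. The median log2 difference was -0.20 over 46 large subunit genes and -0.51 over 29 small subunit genes, where that of all 13597 genes measured was 0.00. At least 1.5-fold lower were 24 of 75 members (32.0%), against 18.1% of all genes. At least 1.5-fold higher were 2 of 75 (2.67%), against 15.8% of all genes. At the 2-fold threshold 9 were lower and 1 was higher, where 7.5% of all genes were lower and 8.14% higher. In bulk RNA a lower share of cells with a transcript and less of it per cell cannot be told apart.

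Among large subunit genes with a bacterial counterpart, Mrpl34 differed most. It was at 0.80 in medium, at -0.71 with LPS, at 1.12 with LA and at 0.74 with both agents, so that it was 2.86-fold lower with LPS than in medium. The LPS array alone stood apart, and the other 3 lay within 0.39 log2 units of each other. Mrpl12, whose product forms the stalk that recruits translation factors, was at 0.45 in medium, at -0.56 with LPS, at 0.45 with LA and at 0.89 with both. Mrpl1, of the ribosome's other stalk, was at 0.37, -0.62, 0.42 and 0.41 in the same order, which is kept below, a difference of -0.99 with LPS that lies just short of 2-fold. Mrpl36 was at -0.48, -1.44, -0.26 and 0.03. For each of these genes the LPS array held the lowest value.

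Several of the lower large subunit genes are specific to mitochondria. Mrpl38 and Mrpl40 code for proteins of the central protuberance of the large subunit. Mrpl38 was at -1.71 in medium, at -3.04 with LPS, at -1.99 with LA and at -2.25 with both. Mrpl40 was at -1.70, -2.96, -1.90 and -1.90. Mrpl44, which has an RNase III-like fold, was at 1.39, 0.29, 1.15 and 1.0. Mrpl50 was at -1.85, -2.93, -1.94 and -2.18. In all 4 genes the value with LPS and LA lay between that with LPS and that in medium.

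Other large subunit genes did not follow this pattern. Mrpl46, also of the central protuberance, was at -0.72, -0.67, -0.65 and -0.73, a range of 0.08. Mrpl39, whose product is related to threonyl-tRNA synthetases, was the 1 member at least 2-fold higher with LPS. It was at 0.42 in medium, at 1.59 with LPS, at 0.01 with LA and at 0.06 with both, a difference of 1.17 (2.25-fold) between LPS and medium. Mrpl32, Mrpl13 and Mrpl52 followed with 0.40, 0.31 and 0.26, all short of 1.5-fold.

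In the small subunit Mrps5, with a bacterial counterpart near the mRNA entrance, was 3.34-fold lower with LPS. It was at -0.45 in medium, at -2.19 with LPS, at -1.81 with LA and at -1.56 with both. On this probe medium was the array that stood apart. A further probe, given below, was lowest with LPS and higher with LA than in medium. Mrps12, the counterpart of a bacterial protein of the decoding centre, was at 2.42, 1.32, 2.09 and 1.91. Mrps31, specific to mitochondria, was at 1.48, 0.41, 1.18 and 1.09. Mrps9 was at 0.03, -0.86, -0.88 and -0.76, so that all 3 treated arrays lay below medium on the probe used. On its further probe the LA array lay 1.54 above medium.

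At the other end, Mrps6 was at -1.06 in medium, at -0.30 with LPS, at -1.24 with LA and at -1.55 with both, and was 1.70-fold higher with LPS than in medium. Mrps22, specific to mitochondria, was at -0.70, -0.13, -0.48 and -0.70, a difference of 0.57 with LPS, just short of 1.5-fold. Mrps28 differed by 0.20. The differences of the 29 small subunit genes with LPS thus ranged from -1.74 to 0.77, and those of the 46 large subunit genes from -1.51 to 1.17.

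**Figure D2:**
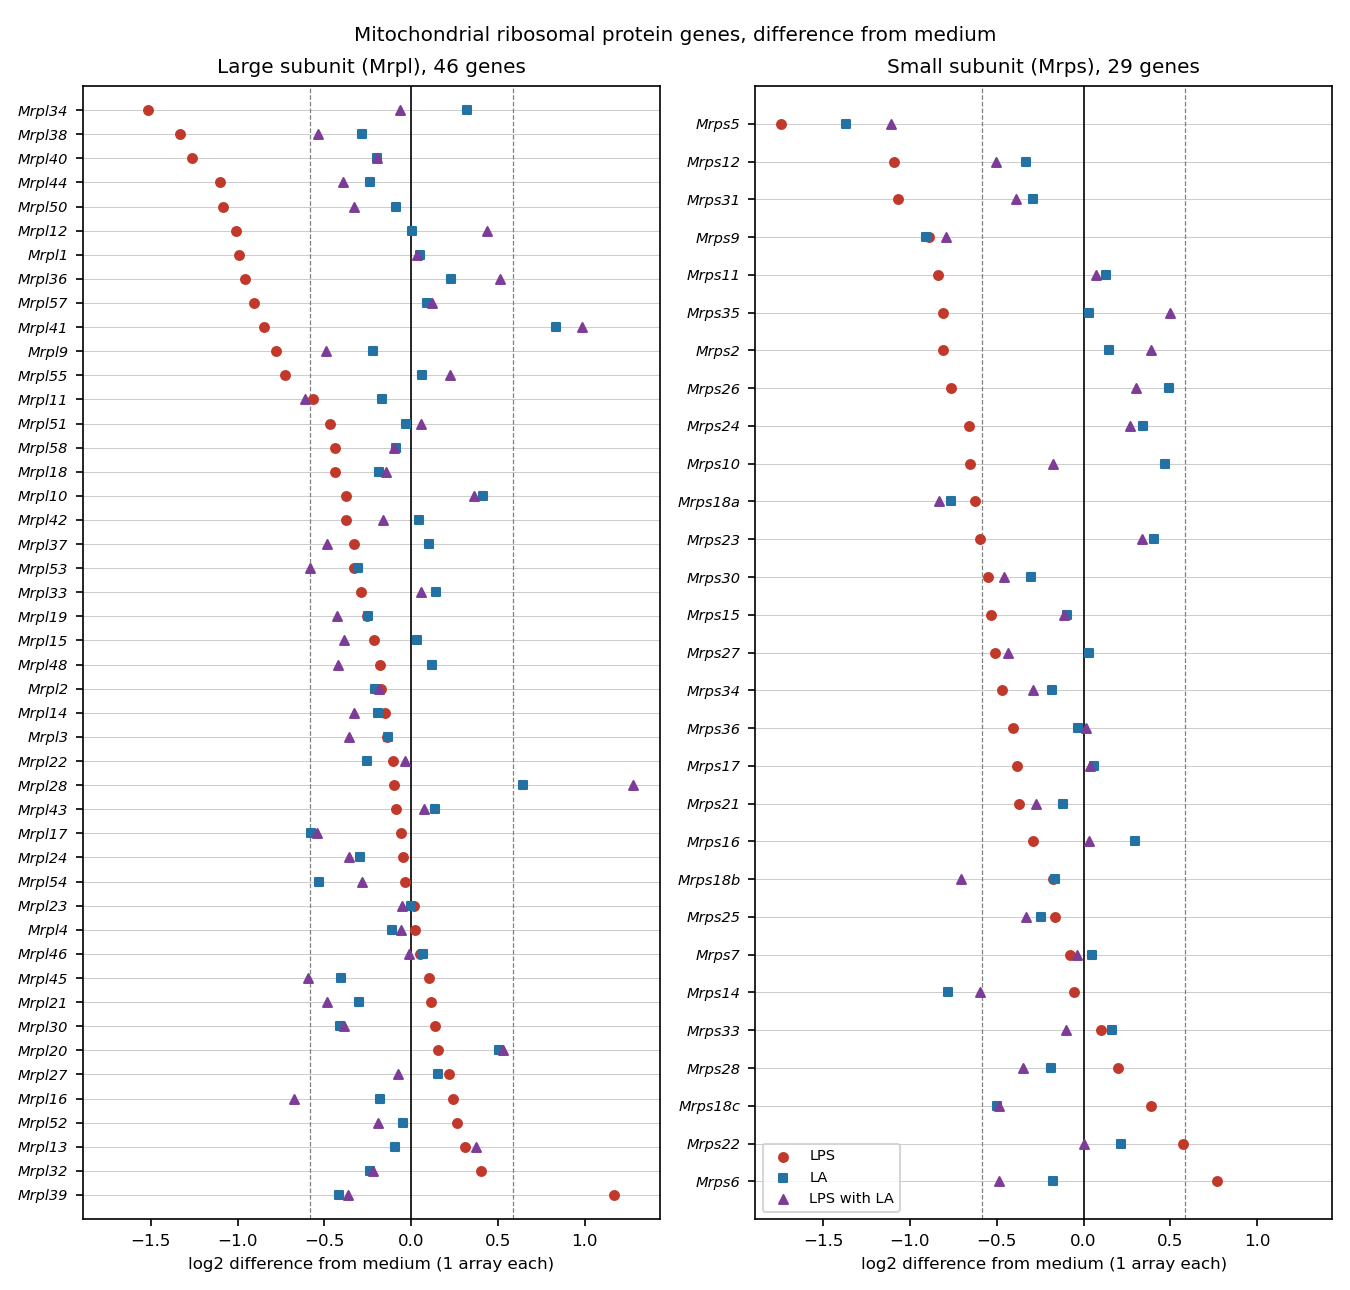
Each row is 1 gene and each point the log2 difference of 1 array from the medium array, for LPS (circles), LA (squares) and LPS with LA (triangles); dashed lines mark 1.5-fold, and genes are ordered by the LPS difference. In 57 of the 75 genes the LPS circle lies left of 0, and Mrps5 and Mrpl34 lie farthest left at -1.74 and -1.51.

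Genes specific to mitochondria had a median LPS difference of -0.45 over 30 genes, with 11 at least 1.5-fold lower and 1 higher. Those with a bacterial counterpart had a median of -0.24 over 44 genes, with 13 lower and 1 higher. These are 36.7% and 29.5% lower, where 18.1% of all genes were lower and 15.8% higher. The 5 genes for proteins of the mitochondrial ribosome that go by other names had a median of -0.19. Ptcd3, a small subunit protein with RNA-binding repeats, differed by -0.77 with LPS. Dap3, a GTP-binding small subunit protein, differed by -0.31, Chchd1 by -0.19, Gadd45gip1 by -0.14 and Aurkaip1 by -0.13. Mrps36 differed by -0.41.

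The LPS difference moved with probe brightness. Members were split at their median level over the 4 arrays, a split chosen after the values were seen. Of the 38 brighter members 6 were at least 1.5-fold lower with LPS, with a median of -0.17. Of the 37 dimmer members 18 were, with a median of -0.55. Over all genes split at the same level the shares lower were 15.1% and 20.2%. Of 10 neutrophil markers 3 were lower and 0 higher with LPS, and of 8 mast cell, basophil and eosinophil markers 3 were higher and 0 lower. The part of brightness or of these cells in the result was not tested.

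The counts also differed between ways of processing the arrays. With quantile normalization alone 29 of 75 members were at least 1.5-fold lower, where 19.5% of all genes were. Normexp with quantile normalization changes the background correction, the spot measure and the scaling together, and with it 16 of 75 members were at least 1.5-fold lower, where 11.2% of all genes were, and 2 (2.67%) rather than 9 were at least 2-fold lower, where 2.65% of all genes were; the medians were then -0.23 for the large and -0.27 for the small subunit. With the authors' deposited values 37 were at least 1.5-fold lower, where 28.4% of all genes were, and 19 at least 2-fold, where 12.8% of all genes were. The authors' scaling places the median of all genes at -0.24 in this comparison. Relative to all genes, the median lay between -0.35 and -0.17 for the large subunit and between -0.65 and -0.22 for the small subunit over the settings tried.

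Gene lists for related functions were set beside the members. Genes for mitoribosome assembly and rRNA modification were also mostly lower with LPS, 9 of 19 measured by at least 1.5-fold and 0 higher, with a median of -0.43, which was -0.28 with normexp, -0.67 with the authors' values and -0.78 with the mean of all probes. The lowest was Mrm1, an enzyme that methylates the large rRNA, at -0.11 in medium, at -1.83 with LPS, at -0.16 with LA and at -0.29 with both. Ngrn, an assembly factor of the large subunit, was at 1.44, -0.03, 0.84 and 1.45. Both were lowest on the LPS array.

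Respiratory complex genes, whose products join the proteins made by this ribosome, had a median LPS difference of -0.02 over 70 genes, with 5 at least 1.5-fold lower and 1 higher. That median was -0.24 with quantile normalization (9 lower), -0.21 with normexp (5 lower) and -0.25 with the authors' values (9 lower). Relative to all genes it was -0.16 with normexp, where the large and small subunit medians were -0.19 and -0.22. Cytosolic ribosomal protein genes had a median of 0.28 over 81 genes, with 1 lower and 2 higher; that median was 0.02 with quantile normalization and 0.04 with the authors' values. Among 14 mitochondrial tRNA synthetase genes 4 were lower and 2 higher, and among 9 translation factor genes 3 were lower and 1 higher. Of the 9, Slirp differed by 1.08 and Mtrf1, a release factor, by -1.48. No test between lists was made.

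**Figure D3:**
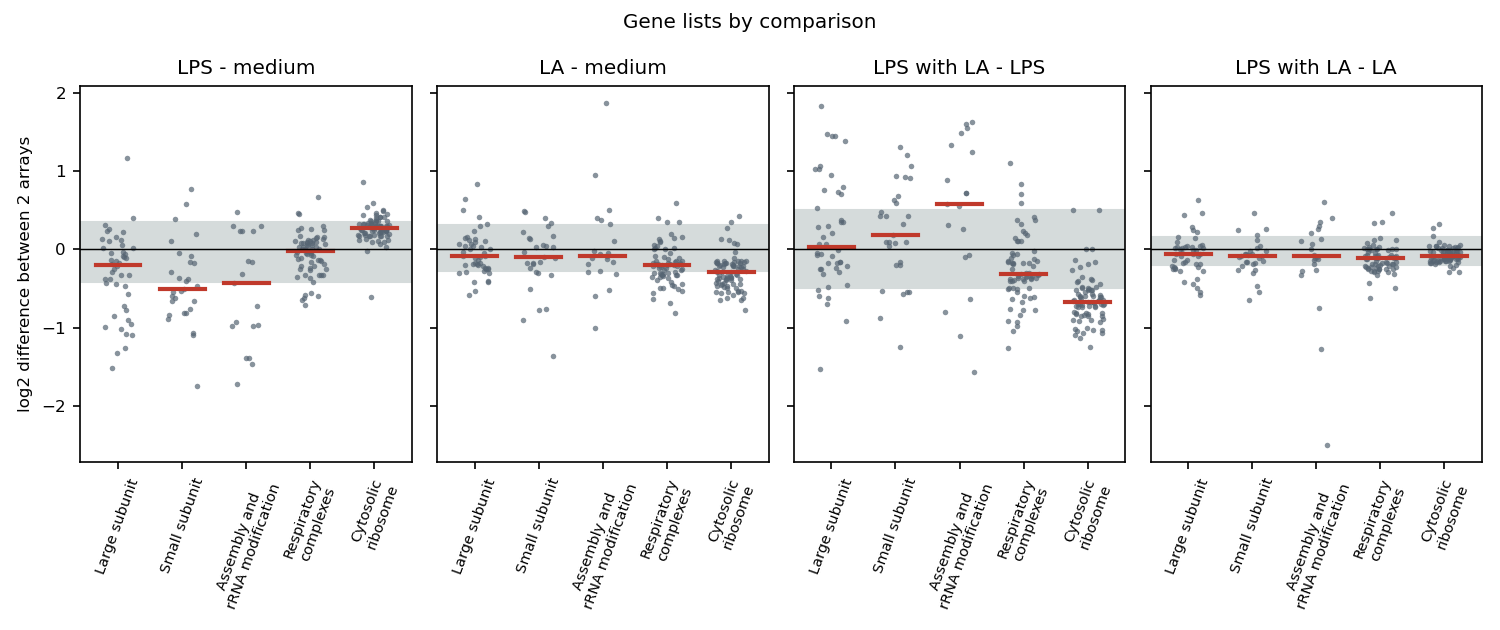
Points are genes, red lines the median of each list, and the grey band the middle 50% of all genes, for 4 differences between arrays on the log2 scale. With LPS against medium the small subunit median lies at -0.51 and that of the cytosolic ribosome at 0.28, and with LPS and LA against LA all lists lie near 0.

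With LA alone the members stayed close to medium. The median difference was -0.09 in both subunits (47 large and 29 small subunit genes measured), although with the authors' scaling both medians were 0.06. At least 1.5-fold higher were 2 of 76 members and lower were 4, where 11.2% of all genes were higher and 10.8% lower. The split was 5 higher and 4 lower with the authors' values, where 16.7% and 7.03% of all genes were. It was 0 and 2 with normexp (4.74% and 4.55% of all genes), and 2 and 1 with the mean of all probes (11.5% and 10.8%).

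The 2 higher genes were Mrpl41 and Mrpl28. Mrpl41, specific to mitochondria, was at -1.51 in medium, at -2.36 with LPS, at -0.67 with LA and at -0.52 with both. Mrpl28, with a bacterial counterpart, was at -3.11, -3.21, -2.47 and -1.83. Both were higher on each array with LA than on each array without it. They were among the dimmer members.

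The 4 lower genes all carry small subunit symbols: Mrps5 (-1.37), Mrps9 (-0.91), Mrps14 (-0.78) and Mrps18a (-0.77). Structures place Mrps18a in the large subunit, as given below. Mrps14 was at 0.29 in medium, at 0.24 with LPS, at -0.48 with LA and at -0.30 with both, so the arrays with LA were the low ones. For Mrps5 and Mrps9 a further probe of the same gene differed in sign, as given below. In the same comparison 6 of 10 neutrophil markers and 5 of 8 measured mast cell, basophil and eosinophil markers were at least 1.5-fold higher with LA, with medians of 0.71 and 0.75. Of 12 dendritic cell markers 5 were lower and 1 higher, with a median of -0.44. The part of these cells in the result was not tested.

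When LA was added to LPS, more members were higher than lower against LPS alone. At least 1.5-fold higher were 22 of 75 (29.3%), where 22.2% of all genes were, and lower were 7 (9.33%), where 21.8% of all genes were. The split was 19 higher and 13 lower with median scaling, and 35 higher and 2 lower with the authors' values, whose scaling places the median of all genes at 0.43. The median difference was 0.18 in the small subunit and 0.03 in the large, the latter being -0.08 with median scaling. This comparison uses the same LPS array as LPS against medium, so the values of the 2 comparisons are not independent.

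At least 2-fold higher with LPS and LA than with LPS were 11 of 75 members (14.7%), where 11.5% of all genes were. The count was 4 with normexp (6.44% of all genes), 7 with median scaling (9.27%), 18 with the percentile over detected probes (18.2%) and 22 with the authors' values (22.7%), so that it lay near or below the share of all genes under the first 2 of these. Mrpl41 differed most, by 1.83 (3.56-fold), followed by Mrpl36 with 1.47, Mrpl34 and Mrpl12 with 1.45, and Mrpl28 with 1.38. In the small subunit Mrps35 was at -1.99 in medium, at -2.80 with LPS, at -1.96 with LA and at -1.49 with both. Mrps2, the counterpart of a bacterial small subunit protein, was at -1.14, -1.95, -1.0 and -0.75, and Mrps26 at 0.22, -0.55, 0.71 and 0.52. All 3 were lowest on the LPS array. Mrpl40, Mrpl1 and Mrpl57 differed by 1.06, 1.03 and 1.02.

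At least 2-fold lower were 2 members, where 12.5% of all genes were. They were Mrpl39 with -1.53 and Mrps6 with -1.25, the same 2 genes that were at least 1.5-fold higher with LPS than in medium. Mrpl16 was at 0.69 in medium, at 0.92 with LPS, at 0.51 with LA and at 0.01 with both, a difference of -0.91. Mrps18c followed with -0.87.

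Brighter and dimmer members differed here too: 17 of 37 dimmer and 5 of 38 brighter members were at least 1.5-fold higher. Over all genes split at the same level the shares higher were 25.1% and 17.9%. Of 10 neutrophil markers 7 were at least 1.5-fold higher in the same comparison, with a median of 1.11. Of 9 macrophage and monocyte markers 5 were lower and 2 higher (median -0.76), and of 12 dendritic cell markers 5 were lower and 3 higher. The part of brightness or of these cells in the result was not tested.

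The median of the assembly genes was 0.58, which was 0.20 with normexp and 1.0 with the authors' values, and 9 of the 19 were higher and 4 lower. Rbfa, which acts in small subunit assembly, was at 0.76 in medium, at -0.64 with LPS, at 0.86 with LA and at 0.98 with both. The median of the cytosolic ribosomal protein genes was -0.67; 53 of 81 were at least 1.5-fold lower and 0 higher, but 4 were lower with quantile normalization and 2 with normexp. Respiratory complex genes had a median of -0.32, which was 0.03 with quantile normalization, 0.09 with normexp and 0.10 with the authors' values.

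Between LA and LPS with LA the members hardly differed. Of 76 measured, 1 was at least 1.5-fold higher with LPS, Mrpl28 with 0.63, and 2 were lower, Mrps10 with -0.65 and Mrpl37 with -0.59. Over all genes 4.07% were higher and 5.35% lower. The median difference was -0.06 in the large and -0.09 in the small subunit. Mrps10 was at 0.73 in medium, at 0.07 with LPS, at 1.2 with LA and at 0.55 with both. Mrpl37 was at 2.0, 1.67, 2.10 and 1.51. In Mrps10 the value with LPS was lower than without it both with and without LA.

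The 2 LPS differences, without and with LA, share no array. Over the 75 members the middle 50% of the differences spanned 0.70 log2 units without LA and 0.24 with it, and over all genes 0.75 and 0.34. Across members the 2 differences had a Pearson r of -0.07 (n = 75 genes, which share the 4 arrays and are not independent replicates). Over all 13367 genes r was 0.02, and by subunit it was 0.07 (46 large) and -0.33 (29 small). For the LA differences without and with LPS, which also share no array, r was 0.48 across members and 0.50 across all genes.

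**Figure D4:**
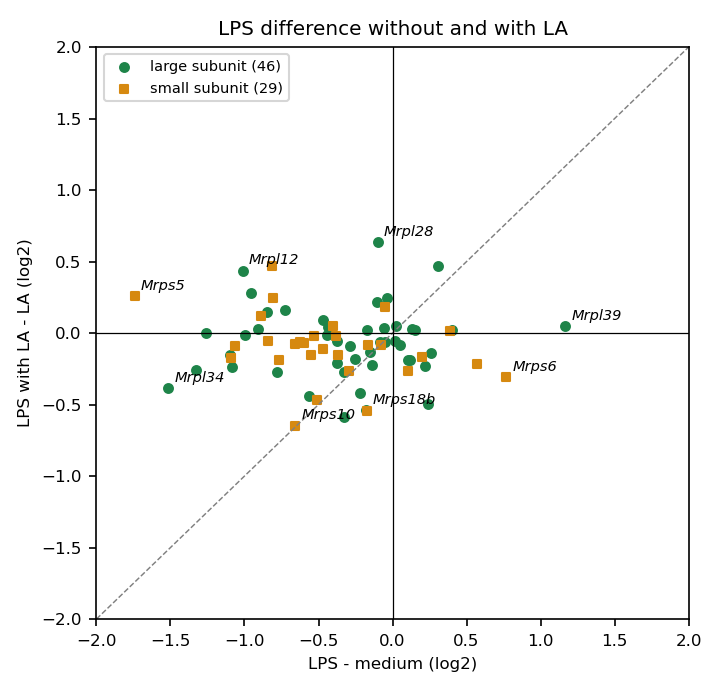
Each point is a member, with its LPS difference without LA on the x axis and with LA on the y axis (log2, 1 array each); the dashed line marks equal differences. Points spread from -1.74 to 1.17 along x and stay between -0.65 and 0.63 along y.

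Against medium, LPS with LA gave medians of -0.19 for the large and -0.27 for the small subunit. With the authors' values, whose scaling places the median of all genes at 0.19, they were -0.0031 and -0.09. With the percentile taken over detected probes they were -0.09 and -0.18. At least 1.5-fold higher were 2 of 76 members, Mrpl28 with 1.28 and Mrpl41 with 0.98, where 10.9% of all genes were. Lower were 8, where 12.5% of all genes were, with Mrps5 lowest at -1.11. The split was 6 higher and 3 lower with the authors' values, where 17.8% and 7.45% of all genes were. It was 5 higher and 4 lower with the percentile taken over detected probes (14.4% and 9.75% of all genes). With normexp it was 1 higher and 2 lower (5.06% and 5.25%). In the same comparison 6 of 10 neutrophil markers (median 0.91) and 4 of 8 mast cell, basophil and eosinophil markers (median 0.61) were at least 1.5-fold higher, and 5 of 12 dendritic cell markers were lower and 2 higher. The part of these cells in the result was not tested.

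Taking the LA difference with LPS minus that without it, 20 of 75 members were at least 1.5-fold higher and 4 lower, where 19.9% and 19.1% of all genes were. The split was 34 higher and 2 lower with the authors' values, where 31.3% and 12.2% of all genes were. Mrps5 had the highest value, 2.0, Mrpl12 had 1.45, Mrps35 1.28 and Mrpl40 1.26. Mrpl39 and Mrps6 had the lowest, -1.12 and -1.07.

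The 4 arrays were also ordered within each gene. The LPS array held the lowest level for 39 of 75 members (52.0%), where it did so for 37.5% of all genes above background on all 4 arrays. By subunit it was 20 of 46 large and 19 of 29 small subunit genes. For 14 members (18.7%) the LPS array held the highest level, against 34.7% of all genes. The medium array held the highest level for 29 members (38.7%), against 19.3% of all genes. On the LPS array, 2 of 81 cytosolic ribosomal protein genes were lowest and 78 highest, and 13 of 70 respiratory complex genes were lowest and 30 highest. The arrays were ordered with the 75th percentile scaling only.

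The paralogues Mrps18a, Mrps18b and Mrps18c derive from a single bacterial gene. In the classes used above, only Mrps18c was counted as having a bacterial counterpart. Mrps18a is placed in the large subunit by structures of the ribosome, but was counted in the small one by its symbol. The paralogues differed from each other. Mrps18a was at 0.07 in medium, at -0.55 with LPS, at -0.70 with LA and at -0.76 with both. Mrps18b was at 1.04, 0.86, 0.87 and 0.33, and Mrps18c at 3.72, 4.11, 3.22 and 3.23. Mrps18a was highest in medium and Mrps18c with LPS.

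For 21 members at least 2 probes were measured, and their agreement shows the spread between probes of a gene, which does not include variation between arrays or cultures. With LPS against medium all probes of a gene went the same way for 18 of the 21, with a median SD between probes of 0.13, a highest of 0.81, and a median of 0.23 over all genes with several probes. For LA against medium this held for 9 of 21, with a median SD of 0.25 and a highest of 1.73, and for LPS with LA against LPS for 13. Spots of probes that each array carries 10 times differed by a median SD of 0.05 where the probe was well above background. For such probes not well above background the median SD was 0.40 to 0.50 by array.

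Single genes depended on the probe. The further probe of Mrps5 was at -1.27 in medium, at -2.33 with LPS, at -1.02 with LA and at -1.57 with both, so it too was lower with LPS (-1.07) but differed by 0.25 with LA. The further probe of Mrps9 was at -2.08, -2.59, -0.54 and -2.72, a difference of 1.54 with LA. The further probe of Mrps23 was at 0.14, -0.82, -0.99 and -0.82, and differed by -1.13 with LA where the probe used differed by 0.40. One further probe of Mrps18b differed by 1.48 between LPS with LA and LPS, where the probe used differed by -0.53. The further probe of Mrpl38 differed by -0.18 with LPS against -1.33 for the probe used, and that of Mrpl1 by -0.93 against -0.99.

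**Figure D5:**
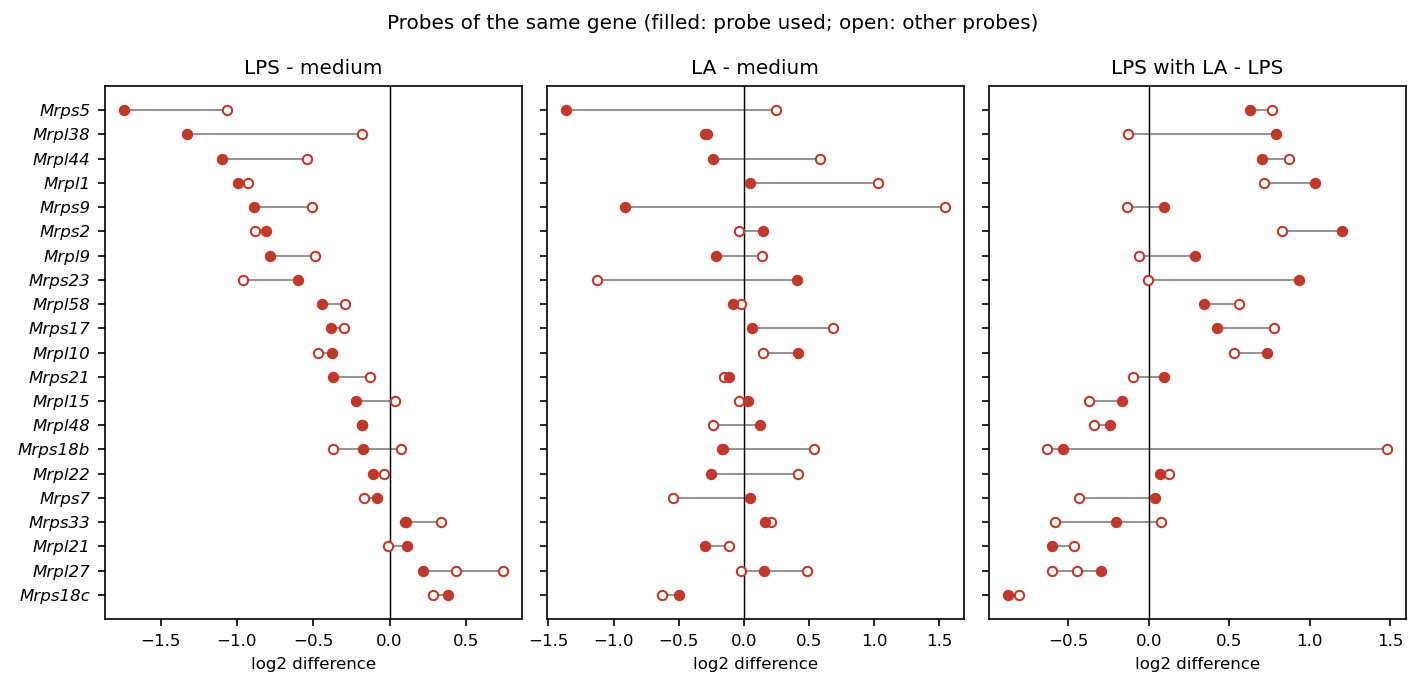
Rows are the 21 members with at least 2 measured probes, ordered by the LPS difference, and points are the log2 difference of each probe (filled for the brightest probe, which was used, open for others). With LPS against medium the probes of 18 members lie on 1 side of 0, and with LA against medium those of 9.

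Members with and without CCGGAAG in the promoter window were set side by side, with no test. The median LPS difference was -0.29 over 26 measured members with the motif and -0.39 over 40 without it, and the middle 50% of both sets overlapped. Between LPS with LA and LPS the medians were 0.07 with and 0.33 without the motif, and here too the middle 50% overlapped. Of the members more than 2-fold lower with LPS, Mrpl34 and Mrps12 hold the motif. Mrpl12, Mrpl40, Mrpl44, Mrpl50, Mrps5 and Mrps31 do not hold it, and Mrpl38 had no window. The promoter of Mrps22 holds it, and this gene was 1.49-fold higher. Mrpl39 and Mrps6, the members at least 1.5-fold higher with LPS, do not hold it.

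Several genes for regulators of mitochondrial biogenesis were measured as well. Of 13 such genes 5 were at least 1.5-fold higher with LPS and 2 lower. Nrf1 and Gabpa, which code for factors that bind motifs counted above, differed by 0.22 and 0.20. Gabpb1, the partner of Gabpa, was at 0.85 in medium, at 2.29 with LPS, at 0.01 with LA and at -0.65 with both. Pprc1, a coactivator for NRF1, was at -1.71, -3.09, -1.35 and -1.15. Gabpb1 was highest and Pprc1 lowest on the LPS array.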

How the data were processed

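RNA of BMDCs was measured on 4 single-colour Agilent arrays, 1 for each condition. The deposited spot intensities are background-subtracted signals that, per the file headers, come from Feature Extraction 12.0.3.1, although version 11.5.1.1 stands in the submitters' processing notes. A value table deposited by the authors equals these signals times 1 factor per array. The number of arrays limits the precision.

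Outlier spots were left out, spots of a probe averaged, and log2 signals centred on each array's 75th percentile. Of 56605 probes, 33767 matched 1 symbol through RefSeq transcript identifiers (GRCm38.p6; the array headers name mm9), 0 matched several and 22838 none. No test was possible with 1 array per group.

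Named genes were, for each of 6 comparisons and each subunit, up to 4 members at each end, every member at least 2-fold apart, the Mrps18 paralogues, members without signal or with discordant probes, the ribosomal proteins with other names, and the ends of related lists. Not all genes that this rule allows are named. Mrpl46, Mrps11, Sars2, Zfp661, Ska3, Nrf1, Gabpa and Gabpb1 were chosen after their values were seen. Members and lists were chosen with earlier results of these data known.

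Alternatives were median scaling, the same percentile taken over detected probes, quantile normalization and normexp (offset 50, on the median spot signal) with limma 3.58.1 in R 4.3.3, the authors' table, no filter or a stricter filter on dim probes, the mean of all probes, and members by function. Other steps used Python 3.11.15, numpy 2.4.6 and pandas 2.3.3, and were tested on simulated data. Promoter motifs were exact matches on both strands in RefSeq windows. Protein features were not analysed here.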

Additional observations from a re-analysis of the deposited data

Results flagged for a closer look

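Mrps5 differed by -1.37 between LA and medium, and by 0.63 between LPS with LA and LPS. The LA difference thus had opposite signs without and with LPS. The second difference exceeded the first by 2.0 log2 units. The difference was not tested, since each value comes from 1 array. A further probe of the gene gave 0.25 without LPS and 0.76 with it.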

How the results depend on the processing

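Of the medians and counts of members over 6 comparisons, 174 values stayed near the value used in the report and 42 moved. A median counted as moved where its sign changed or it differed by at least the median SD between probes of a gene over all genes (0.20 to 0.31 by comparison), and a count at 1.5-fold where it differed by over 1.5 times. Values that moved by this measure follow. For LPS against medium, the large subunit median of -0.20 was -0.44 with the authors' values, and the small subunit median of -0.51 was -0.27 with normexp and -0.75 with the authors' values. The 2 genes at least 1.5-fold higher were 1 with the percentile over detected probes, with normexp and with the authors' values, and the 24 lower were 37 with the authors' values. For LA against medium, both medians of -0.09 were 0.059 with the authors' values, and the small subunit median was 0.0054 with normexp. The 2 higher genes were 1 with median scaling or quantile normalization, 0 with normexp and 5 with the authors' values, and the 4 lower were 2 with normexp and 1 with the mean of all probes.

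For LPS with LA against LPS, the large subunit median of 0.03 was -0.082 with median scaling and 0.45 with the authors' values, and the small subunit median of 0.18 was 0.60 with the latter. The 22 higher genes were 14 with normexp and 35 with the authors' values, and the 7 lower were 13 with median scaling, 4 with the percentile over detected probes, 3 with normexp and 2 with the authors' values. For LPS with LA against LA, the 1 higher gene was 0 with normexp and 2 without a filter, and the 2 lower were 1 with median scaling, the percentile over detected probes, normexp or the authors' values and 4 with the mean of all probes. For LPS with LA against medium, the 2 higher genes were 5 with the percentile over detected probes, 1 with normexp and 6 with the authors' values, and the 8 lower were 4, 2 and 3. For the difference of the LA differences, the 20 higher genes were 12 with normexp and 34 with the authors' values, and the 4 lower were 2 with both. The shares of all genes moved as well. In this last comparison those at least 1.5-fold higher ran from 13.1% to 31.3% over the settings, and those lower from 9.64% to 23.1%.

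Medians that moved less could still change by over 1.5 times. With the percentile over detected probes, the large and small subunit medians for LPS with LA against LPS were 0.31 and 0.46. For LPS with LA against medium, the large subunit median ran from -0.23 to -0.0031 over the settings and the small subunit median from -0.32 to -0.09, and for the difference of the LA differences the ranges were 0.10 to 0.41 and 0.25 to 0.63. At 2-fold, the members lower with LPS ran from 2 to 19, while the share of all genes ran from 2.65% to 12.8%. Those higher with LPS and LA than with LPS ran from 4 to 22, while the share of all genes ran from 6.44% to 22.7%.

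Of 96 values of named members, 9 changed sign with the mean of all probes, 1 with normexp and 1 with the authors' values. Of the 9, 3 were at least 1.5-fold apart in the report: Mrps9 gave 0.32 for LA against medium and -0.34 for the difference of the LA differences, and Mrps22 gave 0.41 for the latter. Mrps22 has a further probe that was above background on 1 array. The causes of the other changes were not tested. Of 54 values of named members at least 1.5-fold apart, 29 (normexp) to 54 (another filter) stayed so in the same direction. No paired analysis was possible because each condition has 1 array. Dim probes limit what can be read, since 3 members were not above background on every array.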
